A study of Mus musculus with 20 samples.

Results

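How genes varied from mouse to mouse inside a group was measured on 15 of the 20 arrays of the series, those of the Tat-/Sal, Tat+/Meth and Tat+/Sal mice, with 5 arrays in each group. The remaining group, Tat-/Meth, was alone on its slide and was not used here. Each array measured the RNA of 1 brain sample by fluorescence of probes for single transcripts. All mice were male C57BL/6J animals that carried a Tet-binding protein under the GFAP promoter, so that the switch acts in astrocytes, and all received doxycycline at 100 mg/kg for 7 days. Tat+ mice also carried the TRE-Tat86 transgene, from which doxycycline turns on the HIV-1 protein Tat, whereas Tat- mice lacked it. Meth mice received methamphetamine at 2 mg/kg and Sal mice received saline, also for 7 days. The labels name the left hemisphere of a perfused brain, taken 24 h after the last injection from mice of 6 to 7 weeks. The methods name the caudate putamen, taken 1 h after a Meth challenge of 1 mg/kg that followed 7 days of abstinence, from mice of 3 to 5 months. The tissue and the time of harvest are therefore not settled by the sources.

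The arrays lay on 2 slides: Tat-/Sal on slide 2, Tat+/Sal on slide 3, and Tat+/Meth with 3 arrays on slide 2 and 2 on slide 3. Signals are given as log2 of the processed intensity after the 75th percentile of every array was brought to a common value. That percentile lay between 9.75 and 10.33 log2 units before scaling, and 55.2 to 68.0% of the probes on an array were well above background. A gene was measured when its brightest probe was well above background on all 15 arrays, which held for 14360 of 20968 gene symbols. Each gene's group mean was subtracted, and the remaining deviations, with 12 degrees of freedom, were compared between genes. Differences between group means were removed by this step and are not described. All 22 genes listed as markers of striatal projection neurons were measured, among them Drd1, Drd2 and Penk. Of 15 markers of cortical projection neurons 10 were measured, and of the others Slc17a7 was well above background on 14 arrays, Emx1 on 12, Neurod6 on 9 and Neurod1 on 0.

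A piece of brain is a mixture, and the genes of a cell type or of a response tend to move together when its amount differs between samples. Immediate early genes such as Fos, Arc and Egr2 are switched on by neuronal firing. Glucocorticoid target genes follow the stress hormone corticosterone, clock genes follow the time of day, interferon response genes follow antiviral signalling, and ciliary genes mark the ependymal cells that line the ventricles. Blood, choroid plexus and meninges enter a sample through what the dissection and perfusion leave in it. In bulk tissue, more cells of a type and more RNA per cell cannot be told apart.

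The spread of a gene around its group mean was small for most genes. The within-group SD had a median of 0.142 log2 units over the 14360 genes, with quartiles at 0.105 and 0.209, and 381 genes (2.65%) exceeded 0.5. For 301 probes printed on several spots of each array, the median SD between repeat spots of 1 array was 0.0449 log2 units, against 0.127 between arrays of a group. The spread of these probes was thus larger between arrays than between spots. A pair of genes taken at random hardly moved together: over all pairs the median Pearson correlation was 0.0423, and 10.1% of the pairs exceeded 0.5.

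**Figure D1:**
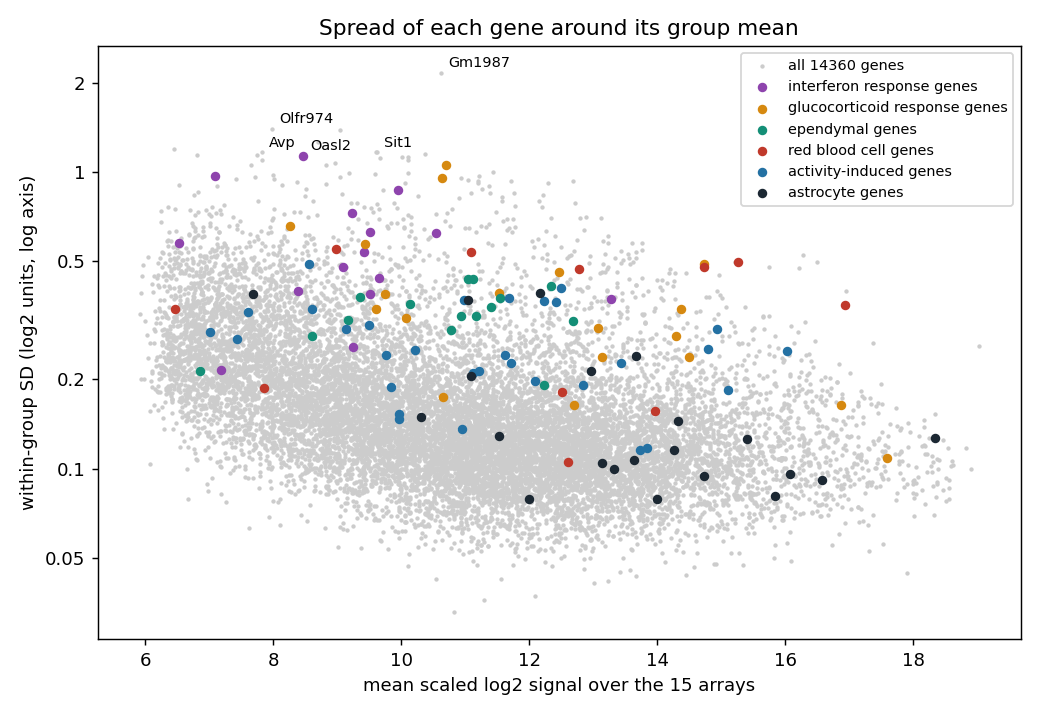
Within-group SD of each gene (log axis, log2 units) against its mean scaled log2 signal over the 15 arrays, with all 14360 genes in grey and gene lists in colour. The interferon response genes have a median SD of 0.54 and the astrocyte genes one of 0.13, and Gm1987 has the largest SD at 2.16.

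The 20 genes with the largest within-group SD ran from 2.16 for Gm1987 to 1.06 for Oxt, with Plin4 just outside at 1.05. Gm1987 read 11.64, 11.90, 11.93, 12.20 and 12.45 on the Tat-/Sal arrays. It read 7.46, 7.77, 11.74, 11.96 and 11.999 on those of Tat+/Meth and 7.34, 7.40, 7.91, 12.21 and 13.36 on those of Tat+/Sal. It had a high and a low level, with no array between 7.91 and 11.64, and both levels occurred in Tat+/Meth and in Tat+/Sal. Members of a gene list made up 3 of the 20: Avp and Oxt, the vasopressin and oxytocin hormones of the hypothalamus, and the interferon-induced Oasl2. Avp and Oxt had SDs of 1.17 and 1.06 and correlated with each other at r = 0.86 (0.82 to 0.90 when single arrays were left out). The Avp signal ranged from 5.95 to 9.86 and that of Oxt from 7.28 to 11.51, so that the arrays differed widely in these hypothalamic transcripts.

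Another 10 of the 20 formed a block: Olfr974, 4930554C24Rik, Prss28, Sit1, Layn, Col4a6, C1qtnf1, Esrp1, Pde6g and Myod1. Several are best known from other tissues, such as the olfactory receptor Olfr974, the muscle regulator Myod1, the lymphocyte adaptor Sit1 and the retinal phosphodiesterase subunit Pde6g. The correlation between members of the block had a median of 0.90 and ranged from 0.64 to 0.97. Sit1 read 8.77, 9.15, 9.20, 9.39 and 9.40 on the Tat-/Sal arrays. It read 8.81, 8.87, 9.86, 10.38 and 11.36 on those of Tat+/Meth and 7.94, 8.65, 9.55, 10.95 and 12.10 on those of Tat+/Sal. The Tat-/Sal arrays lay close together, within 1.55-fold, whereas the Tat+/Sal arrays spanned 17.9-fold. All Tat-/Sal arrays were on slide 2 and all Tat+/Sal arrays on slide 3, so group and slide cannot be told apart in this spread.

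The block followed the first principal component of the deviations, which held 25.7% of their variance, at correlations of 0.79 to 0.97. Its members were chosen from the same deviations, so these values describe the block and test nothing. Of the component's squared array weights, 78.9% lay on the Tat+/Sal arrays, 18.6% on Tat+/Meth and 2.56% on Tat-/Sal. The component moved with the bright corner control spots of the arrays at r = 0.77, and the mean of the block did so at 0.68. The log2 signal of these spots ranged from 17.08 to 17.25 in Tat-/Sal and from 16.80 to 17.42 in Tat+/Sal. The part of this technical measure in the block was not tested. Genes with more than 1 probe allow a further look. The brightest and the next probe of a gene correlated at a median of 0.36 over 3622 genes. The median was 0.11 over the 58 genes whose correlation with the component exceeded 0.9 in size. Over the 480 genes at 0.7 to 0.9 in size it was 0.38. Among the 42 genes with a further probe and an SD over 0.5, the median was 0.10, and in 8 of them the probes correlated above 0.7. A large SD was thus often not shared by another probe of the gene. Of the 20 genes with the largest SD, 0 had another measured probe.

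The gene lists differed widely in how far their members moved together. The median correlation between members was 0.90 for 15 interferon response genes, 0.69 for 15 ependymal genes, 0.61 for 19 glucocorticoid response genes, 0.54 for 12 endoplasmic reticulum stress genes and 0.53 for 12 heat shock genes. It was 0.39 for 31 activity-induced genes, 0.38 for 24 oligodendrocyte genes, 0.37 for 12 meningeal and fibroblast genes, 0.34 for 22 striatal projection neuron genes and 0.32 for 15 circadian clock genes. Microglia (0.23) and endothelial genes (0.23) lay between these and the median over all pairs of genes, 0.0423. Interneuron (0.15), pericyte and smooth muscle (0.11), red blood cell (0.10), astrocyte (0.08), cortical neuron (0.08) and hypothalamic genes (0.05) had lower medians. Choroid plexus (0.01), oligodendrocyte precursor (0.01), thalamic (-0.04) and neutrophil genes (-0.09, 3 genes) lay below the median of all pairs. These medians are descriptions, with no test.

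**Figure D2:**
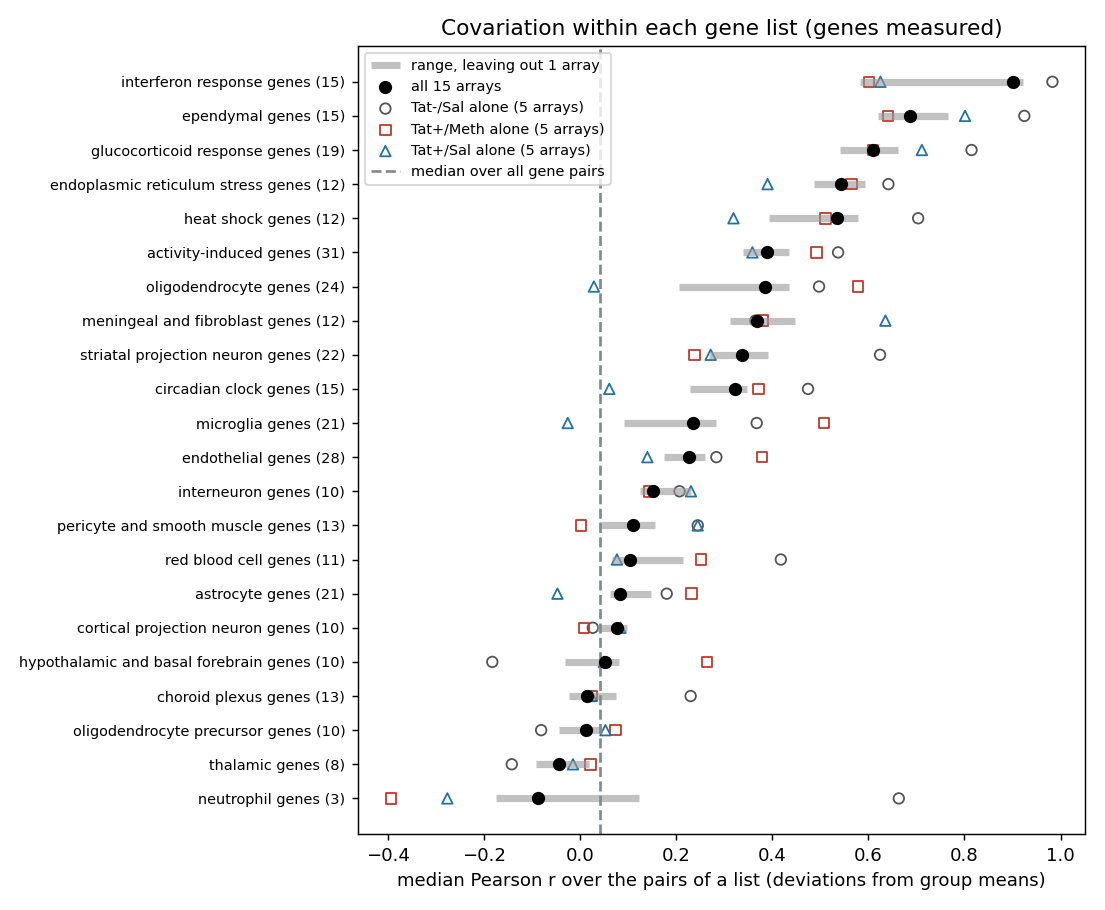
Median Pearson correlation between the members of each gene list. Black points use all 15 arrays, grey bars span the values when 1 array was left out, open symbols use the 5 arrays of 1 group, and the dashed line marks the median over all pairs of genes (0.0423); interferon response (0.90), ependymal (0.69) and glucocorticoid response genes (0.61) have the highest medians.

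Interferon response genes had the largest median SD of the 22 lists, 0.54, over 15 of 17 genes (Ifit1 and Irf7 were well above background on 14 and 10 arrays). Promoters of the list were searched for a sequence chosen after the values were seen. The members were listed as interferon response genes, so its presence before them describes the list and tests nothing. The interferon-stimulated response element was searched as GAAA, any 2 bases and GAAA on both strands of the 250 bases before the RefSeq start sites (assembly GRCm38.p6). It was present in 8 of the 10 measured members with a promoter in the table, against 3.46% of 27025 genes. Isg15, on the minus strand at chr4:156200819-156201068, and Gbp3, on the plus strand at chr3:142559794-142560043, are shown as a ubiquitin-like and a GTPase member that followed the list closely, with the element in capitals and overlapping copies merged.
Isg15: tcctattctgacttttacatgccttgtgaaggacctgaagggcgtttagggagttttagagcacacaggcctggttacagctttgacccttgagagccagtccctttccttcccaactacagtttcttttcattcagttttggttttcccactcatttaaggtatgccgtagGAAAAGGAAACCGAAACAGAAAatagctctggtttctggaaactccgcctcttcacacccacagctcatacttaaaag
Gbp3: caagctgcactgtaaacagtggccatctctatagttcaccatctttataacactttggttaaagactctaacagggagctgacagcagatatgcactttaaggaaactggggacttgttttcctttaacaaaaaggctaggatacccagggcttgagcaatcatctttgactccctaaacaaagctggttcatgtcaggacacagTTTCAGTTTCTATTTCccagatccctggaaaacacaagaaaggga
Isg15 had an SD of 0.87 log2 units and Gbp3 of 0.54, and they followed the rest of the list at 0.99 and 0.98.

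Isg15, a ubiquitin-like protein induced by type I interferon, read 9.41, 9.62, 9.74, 10.45 and 12.90 on the Tat-/Sal arrays. It read 9.40, 9.59, 9.62, 9.86 and 9.86 on those of Tat+/Meth and 9.30, 9.56, 9.60, 9.96 and 10.37 on those of Tat+/Sal. A single Tat-/Sal array stood 11.3-fold above the lowest of its group, against 1.38-fold between the extremes of Tat+/Meth and 2.10-fold in Tat+/Sal. On that array, replicate 1 of Tat-/Sal, 15 of 15 members were the highest of their group, and the mean of the list stood 1.54 log2 units above the group mean. The mean lay between -0.13 and 0.21 in Tat+/Meth and between -0.27 and 0.38 in Tat+/Sal. Oasl2, Usp18 and Rtp4 had SDs of 1.14, 0.97 and 0.73 and followed the rest at 0.98, 0.97 and 0.98.

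Without that array the list still moved together, at a lower level. The median correlation was 0.58, the median SD 0.27 (0.14 over all genes), and 10 of the 15 members correlated with the rest above 0.7, among them Isg15 at 0.95 and Oasl2 at 0.94. The genes outside the list most like its mean were Irf9 (0.98), Ddx58 (0.98), Oas1a (0.98) and Oas1f (0.97). Irf9, the DNA-binding subunit of the interferon-stimulated factor, had r = 0.89 without the array. In all, 50 of 14345 other genes exceeded 0.8.

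Ependymal genes moved together in all 3 groups, with medians of 0.92, 0.64 and 0.80 in these groups (Tat-/Sal first, Tat+/Sal last). Ccdc153, a coiled-coil protein of ciliated cells, read 11.51, 11.56, 12.15, 12.20 and 12.60 on the Tat-/Sal arrays. It read 11.69, 12.44, 12.56, 12.66 and 12.87 on those of Tat+/Meth and 12.26, 12.31, 12.62, 12.64 and 13.02 on those of Tat+/Sal. The extremes of a group differed 2.13-fold, 2.26-fold and 1.69-fold. Of the 15 members 11 followed the rest above 0.7, led by Ccdc153 (0.98) and Tmem212 (0.98), with the ciliary protein Tekt1 at 0.94 and the master regulator of motile cilia, Foxj1, at 0.79. Tppp3 ran the other way (r = -0.31). Further probes moved with the brightest for Tekt1 (r = 0.98), Meig1 (0.98) and Cfap126 (0.92). Outside the list, Fam216b, Cfap57 and 1700012B09Rik followed its mean at 0.99, 0.99 and 0.99, and 162 of 14345 other genes exceeded 0.8. The ciliary gene Cfap45 and the dynein Dnah10 were among the first 10, both at 0.97.

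The core of the X-box, to which the RFX factors of ciliated cells bind, was searched as GTTGCC on both strands and was present before 6 of 10 measured ependymal genes and before 11.8% of all genes. The stretch before Ccdc153, on the plus strand at chr9:44240427-44240676, is shown for the member nearest the list, with the core in capitals.
Ccdc153: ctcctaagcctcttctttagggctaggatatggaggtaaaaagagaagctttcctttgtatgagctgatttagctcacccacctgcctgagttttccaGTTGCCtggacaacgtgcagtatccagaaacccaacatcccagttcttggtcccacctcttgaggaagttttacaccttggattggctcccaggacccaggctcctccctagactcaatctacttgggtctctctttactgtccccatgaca
The mean of the choroid plexus genes, which belong to the neighbouring epithelium, moved with that of the ependymal genes at r = 0.65 (0.66 with slide taken out). Choroid plexus genes had a median correlation of 0.01 with each other, although 20.5% of their pairs exceeded 0.5, against 10.1% of all pairs.

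Of 26 choroid plexus genes 13 were measured. Ttr, the carrier of thyroid hormone and an abundant choroid plexus transcript, failed the rule, since 13 of the 15 arrays had its probe well above background. Ttr read 6.16, 6.39, 10.43, 10.703 and 13.47 on the Tat-/Sal arrays. It read 4.69, 5.51, 6.27, 6.69 and 10.17 on those of Tat+/Meth and 5.08, 7.31, 8.92, 9.50 and 13.42 on those of Tat+/Sal. Its within-group SD was 2.81 log2 units. This SD and the correlations with Ttr include the 2 arrays on which it was not well above background. Kl, the klotho co-receptor, followed Ttr at 0.73, as the 1 of 13 members at 0.7 or more, against 0.0766% of all genes. Otx2, a transcription factor of choroid plexus identity, followed Ttr at 0.48 and Tmem72 at -0.41. Ttr had r = 0.54 with the mean of the measured choroid plexus genes and 0.08 with that of the ependymal genes. Calml4 (0.91), Otx2 (0.81) and Steap1 (0.71) followed the rest of the list, whereas Slc13a4 (-0.20) and Tmem72 (-0.73) did not. Slc13a4, a sulphate transporter, was instead the gene most like the meningeal list outside it (r = 0.93).

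Enpp2 stood in for Ttr as a marker. It encodes autotaxin, which oligodendrocytes also make. Enpp2 read 14.17, 14.36, 14.48, 14.55 and 14.58 on the Tat-/Sal arrays. It read 13.96, 14.09, 14.10, 14.16 and 14.34 on those of Tat+/Meth and 14.07, 14.30, 14.39, 14.46 and 14.62 on those of Tat+/Sal. Of the other 12 choroid plexus genes 0 followed it at 0.7 or more, against 1.43% of all genes, and its correlation with Kl was 0.20 (permutation p = 0.542, adjusted 0.689 over 14 relations). Of the 24 oligodendrocyte genes 3 did so: Cnp (0.85), Tspan2 (0.72) and Bcas1 (0.81). The gene most like Enpp2 was Kif1c (0.96). In limma 0 genes covaried with Enpp2 at an adjusted p under 0.05, with 1376 of 14359 at an unadjusted p under 0.05.

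Glucocorticoid response genes had a median SD of 0.35, and 12 of 19 members followed the rest above 0.7. Zbtb16, a zinc finger repressor, read 9.91, 10.33, 10.61, 10.76 and 12.06 on the Tat-/Sal arrays. It read 9.47, 9.56, 10.73, 11.30 and 11.78 on those of Tat+/Meth and 9.27, 10.40, 10.40, 10.90 and 12.06 on those of Tat+/Sal. Every group spanned a wide range of Zbtb16, 4.46-fold, 4.95-fold and 6.93-fold. Plin4, a lipid droplet protein, had an SD of 1.05 and followed the rest at 0.92. Fkbp5, the co-chaperone that dampens the receptor, followed at 0.94, Map3k6 at 0.95, Hif3a at 0.95, Arrdc2 at 0.92 and Tsc22d3 (GILZ) at 0.91. A further probe moved with the brightest for Arrdc2 (r = 0.995) and Sult1a1 (0.99) and hardly for Hif3a (0.12). The iron carrier Lcn2 (0.33) and the metallothionein Mt1 (0.30) followed least. The glucocorticoid response element was searched as G, any base, ACA, any 3 bases, TGT, any base and C on both strands, and lay before 3 of 17 members (Sgk1, Mt1 and Map3k6) and 0.44% of all genes.

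Outside the list, Smim3, Emilin2, Sh2b2 and Ada followed its mean at 0.96, 0.95, 0.94 and 0.93, and Nol4l ran against it at -0.94. The circadian clock genes moved with it (r = 0.79, 0.70 to 0.89 when single arrays were left out). Ciart, a repressor of the clock, had an SD of 0.60 and followed the rest of the clock list at 0.94, with the heme receptor Nr1d1 at 0.79 and the output factor Dbp at 0.75. Clock (-0.49) and Npas2 (-0.41), of the activating arm, ran against the rest. Cirbp and Rbm3, the cold-inducible RNA-binding proteins, followed the clock list at 0.94 and 0.92 from outside it, and each other at 0.88.

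Heat shock and endoplasmic reticulum stress genes moved with each other (r between the list means = 0.87, 0.81 to 0.90 when single arrays were left out). Their spread was close to that of all genes, with median SDs of 0.15 and 0.14. The small chaperone Hspb1 (0.81), Chordc1 (0.80) and Dnaja1 (0.79) followed the other heat shock genes most closely. Of the reticulum genes, the co-chaperone Dnajb11 (0.90), Sdf2l1 (0.87) and the chaperones Hspa5 (0.86) and Hsp90b1 (0.83) did so, and the pro-apoptotic factor Ddit3 had 0.15. The collagen chaperone Serpinh1 (0.93) was most like the heat shock mean from outside. The clock list ran against the heat shock list at -0.66, and at -0.36 without the 2 arrays farthest from the median.

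The endoplasmic reticulum stress element, searched as CCAAT, any 9 bases and CCACG on both strands, was present before 4 of 10 members (Hspa5, Creld2, Calr and Hsp90b1) and before 0.13% of all genes. The bases before Hspa5, on the plus strand at chr2:34771840-34772089, and before Creld2, on the plus strand at chr15:88819396-88819645, are shown because they hold the element in opposite orientations, in capitals.
Hspa5: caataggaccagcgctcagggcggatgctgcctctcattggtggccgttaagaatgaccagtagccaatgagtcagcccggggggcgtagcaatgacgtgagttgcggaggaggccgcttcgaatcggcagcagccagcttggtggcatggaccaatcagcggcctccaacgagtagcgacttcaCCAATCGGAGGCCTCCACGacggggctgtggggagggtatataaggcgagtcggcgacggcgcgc
Creld2: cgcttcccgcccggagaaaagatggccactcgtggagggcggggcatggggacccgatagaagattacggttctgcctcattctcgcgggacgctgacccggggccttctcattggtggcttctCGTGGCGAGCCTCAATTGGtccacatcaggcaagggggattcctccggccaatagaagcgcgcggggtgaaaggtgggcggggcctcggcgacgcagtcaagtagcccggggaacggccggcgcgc
Hspa5 and Creld2 followed the rest of their list at 0.86 and 0.82.

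Activity-induced genes were measured for 31 of 35 genes, with a median SD of 0.25. Fos, the classic immediate early transcription factor, read 10.57, 10.60, 10.86, 11.27 and 11.60 on the Tat-/Sal arrays. It read 10.84, 11.30, 11.49, 11.55 and 11.60 on those of Tat+/Meth and 10.30, 10.40, 10.49, 10.87 and 11.11 on those of Tat+/Sal. Fos had an SD of 0.45, 0.31 and 0.34 in the 3 groups. Of the 30 other members 11 followed Fos at r of 0.7 or more, against 0.557% of all genes: Arc (0.86), Atf3 (0.85), Btg2 (0.84), Egr2 (0.84), Egr1, Egr4, Nr4a1, Dusp1, Ier5, Fosl2 and Ccn1. The synaptic effector Arc was closest to the list as a whole (0.96), before the transcription factors Egr2 (0.93), Nr4a1 (0.91), Fos (0.90) and Egr1 (0.89). Arc read 14.60, 14.77, 14.90, 14.999 and 15.50 on the Tat-/Sal arrays. It read 14.60, 14.91, 15.01, 15.19 and 15.22 on those of Tat+/Meth and 14.41, 14.84, 14.94, 15.02 and 15.18 on those of Tat+/Sal. The neurotrophin Bdnf (-0.14), Maff (-0.28) and Csrnp1 (0.05) did not follow. Junb, a partner of Fos in the AP-1 complex, correlated with Fos at 0.46 (permutation p = 0.116, adjusted 0.306 over 14 relations), and at 0.79 (adjusted permutation p = 0.00476) without replicate 4 of Tat+/Sal. It was 0.27 without replicate 2 of Tat-/Sal and 0.19 without the 2 arrays farthest from the median.

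In limma 0 genes covaried with Fos at an adjusted p under 0.05, with 624 of 14359 genes at an unadjusted p under 0.05 and a lowest adjusted p of 0.314. The count was 2 without replicate 3 of Tat+/Meth. The cAMP response element, TGACGTCA, a palindrome, was present before 4 of 26 activity-induced genes (Dusp1, Btg2, Maff and Arl4d) and before 1.77% of all genes, and the CArG box before 1 of 26 (Egr2) and 1.62%. Btg2, an antiproliferative immediate early gene on the minus strand at chr1:134079156-134079405, is shown as a member that followed Fos and holds the element, in capitals.
Btg2: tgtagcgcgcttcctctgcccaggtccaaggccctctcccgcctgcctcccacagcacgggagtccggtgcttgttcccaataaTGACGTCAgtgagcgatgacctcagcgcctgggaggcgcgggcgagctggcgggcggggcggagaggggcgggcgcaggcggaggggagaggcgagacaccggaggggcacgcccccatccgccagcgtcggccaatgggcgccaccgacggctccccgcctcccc
Of the 4 genes with the element, Btg2 (0.84) and Dusp1 (0.75) followed Fos at 0.7 or more, and Arl4d had r = 0.27 and Maff r = -0.33.

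Globin transcripts moved together closely, whereas the red blood cell list as a whole did not. Of 17 genes 11 were measured, and the membrane protein genes Kel and Rhag were well above background on 0 arrays. Hbb-b1, Hbb-b2, Hbb-bt, Hba-a1, Hba-a2 and Alas2, an enzyme of heme synthesis in erythroid cells, correlated at a median of 0.94, and the other 5 (Slc4a1, Slc25a37, Car1, Hemgn and Bpgm) at -0.06. This split was made after the values were seen. Probes of near-identical globin copies may share transcripts, so their agreement is uncertain, although Alas2 is no such copy and followed Hba-a1 at 0.95. Hbb-b1 read 10.56, 10.62, 11.22, 11.31 and 11.41 on the Tat-/Sal arrays. It read 10.52, 10.73, 11.14, 11.27 and 11.60 on those of Tat+/Meth and 10.51, 10.86, 10.90, 11.36 and 12.37 on those of Tat+/Sal. Hba-a1 read 14.70, 14.79, 15.17, 15.55 and 15.66 on the Tat-/Sal arrays. It read 14.27, 14.36, 15.31, 15.55 and 15.65 on those of Tat+/Meth and 15.15, 15.43, 15.59, 15.81 and 16.004 on those of Tat+/Sal. Both spread in every group. Hbb-b1 correlated with Hba-a1 at r = 0.78 and rho = 0.76 (permutation p = 0.000120 and 0.00166, adjusted 0.00168 and 0.0116 over 14 relations), and at 0.84 without the 2 arrays farthest from the median. Of the 10 other red blood cell genes 5 followed Hbb-b1 at 0.7 or more, against 0.327% of all genes. In limma 0 genes reached an adjusted p under 0.05, with 389 of 14359 at an unadjusted p under 0.05.

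Fos and the globin genes varied together. Fos and Hbb-b1 correlated at r = 0.76 and rho = 0.81 (permutation p = 0.00117 and 0.00121, adjusted 0.00819 and 0.0116 over 14 relations), at 0.77 without the 2 arrays farthest from the median and at 0.74 with slide taken out. Leaving out single arrays gave 0.73 to 0.84. Of the 11 red blood cell genes 6 followed Fos at 0.7 or more, the 5 globin genes and Alas2, against 0.557% of all genes. Of the 31 activity-induced genes 2, Fos and Ier5, followed Hbb-b1 at that limit, against 0.327% of all genes. Between the means of both lists r was 0.77, with 0.77, 0.79 and 0.86 inside Tat-/Sal, Tat+/Meth and Tat+/Sal. The mean of the globin genes and Alas2 had r = 0.49 with the 75th percentile before scaling and 0.27 with the endothelial list. With that percentile as a covariate the correlation of Fos and Hbb-b1 was 0.72. The pericyte and smooth muscle list ran against the activity-induced list at -0.69 (-0.83 to -0.60 when single arrays were left out).

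**Figure D3:**
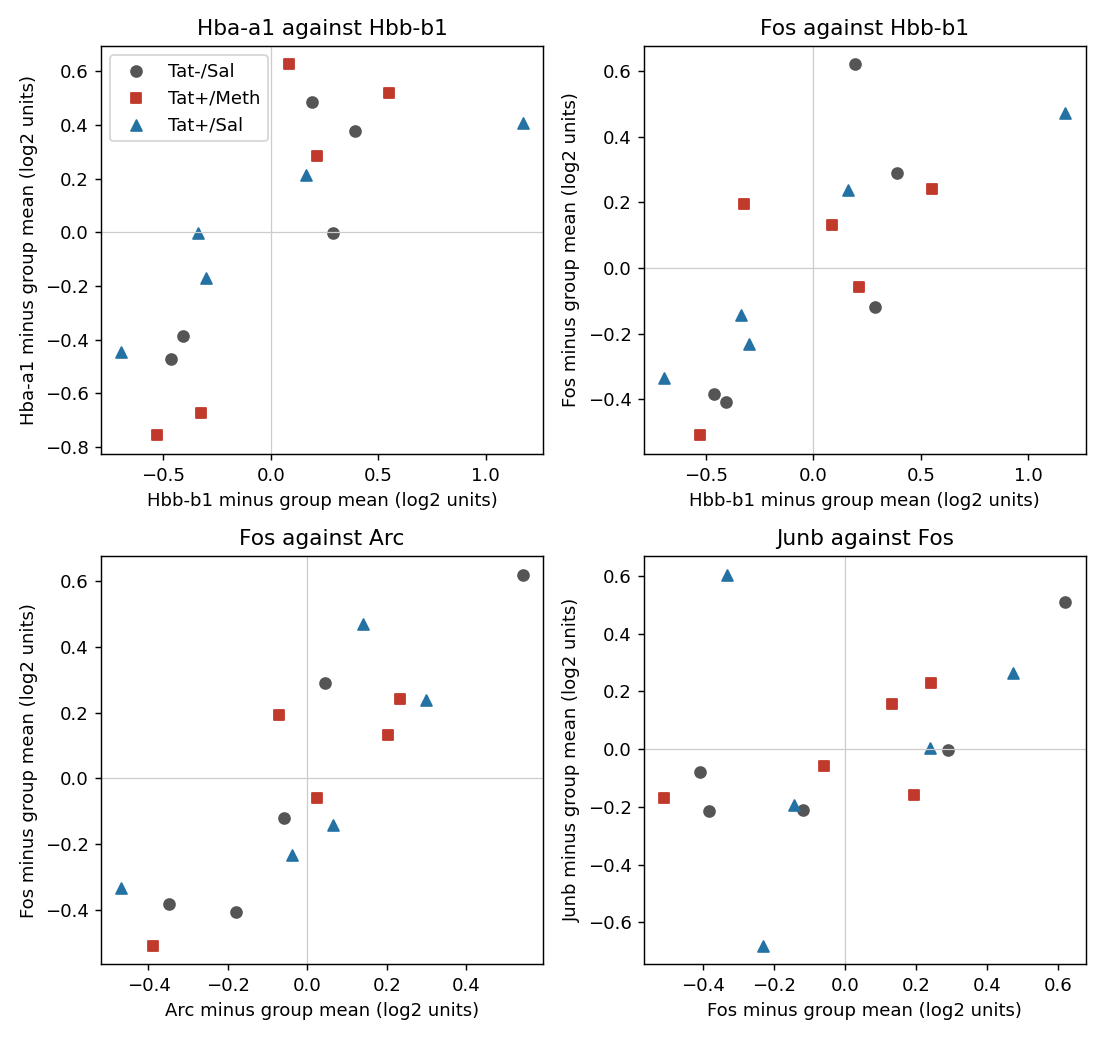
Deviations from the group mean (log2 units) for Hba-a1 against Hbb-b1, Fos against Hbb-b1, Fos against Arc and Junb against Fos, with 1 point per array and a symbol per group. Fos and Hbb-b1 rise together (r = 0.76), as do Hbb-b1 and Hba-a1 (r = 0.78), and Fos and Junb are looser (r = 0.46).

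Oligodendrocyte genes moved together more through Cnp and Tspan2 than through Mbp. Mbp, myelin basic protein, read 14.31, 14.39, 14.41, 14.44 and 14.52 on the Tat-/Sal arrays. It read 14.21, 14.41, 14.46, 14.47 and 14.49 on those of Tat+/Meth and 14.35, 14.36, 14.42, 14.43 and 14.61 on those of Tat+/Sal. Its SD, 0.10, was the lowest of the list. Mbp followed the rest of the list at 0.46, and 0 of the other 23 members followed Mbp at 0.7 or more, against 5.09% of all genes. Mbp ran against the 75th percentile before scaling at r = -0.69 (permutation p = 0.00908, adjusted 0.0424 over 14 relations) and rho = -0.68 (adjusted 0.0522), and the oligodendrocyte list did so at -0.65. The call for Mbp held under 9 of 24 alternatives, and the correlation turned sign without scaling (0.75) and with the mean of all probes (0.02). The part of the scaling in these relations was not tested. The other 2 Mbp probes followed the list at 0.26 and -0.01, against 0.49 for the brightest.

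Cnp (0.83), Tspan2 (0.83), Gpr37 (0.79), Trf (0.77) and Mal (0.77) followed the rest of the oligodendrocyte list most closely. Ermn (-0.55) had the largest SD of the list, 0.50, and its probes ran against each other (-0.64). Within Tat-/Sal the median of the list was 0.50, within Tat+/Meth 0.58 and within Tat+/Sal 0.03, a difference that was not tested. Over all groups it was 0.21 without replicate 5 of Tat+/Meth. Outside the list, Rnf130, the ceramide synthase Cers2 and the creatine enzyme Gamt were close to its mean (0.91, 0.88 and 0.88). In limma 3129 of 14359 genes had an unadjusted p under 0.05 with Mbp. At an adjusted p under 0.05 the count was 2 (0.0139%), Fbxo7 (slope 1.65, SE 0.24) and Adamts16 (slope -2.97, SE 0.42), both with an adjusted p of 0.0492. Neither was a list member. Without replicate 5 of Tat+/Meth the count was 87, it was 3 without replicate 1 of Tat-/Sal, and it was 0 with slide as a block and without each of 11 other arrays.

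**Figure D4:**
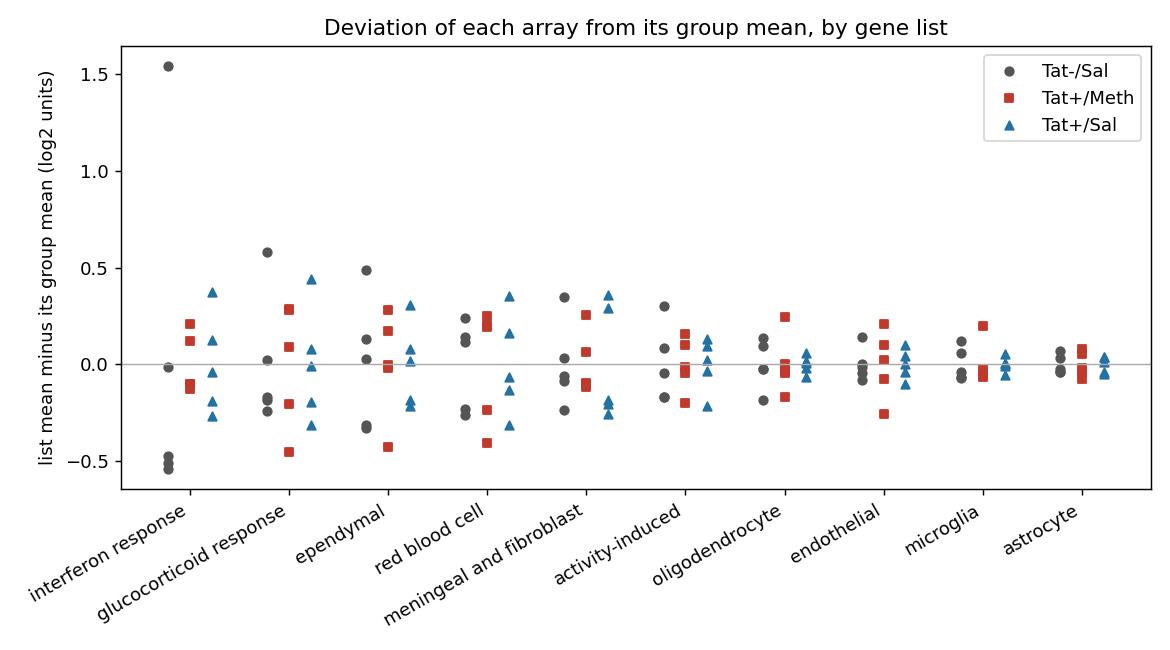
Mean of gene lists on every array, minus its group mean (log2 units), with a symbol per group. One Tat-/Sal array stands 1.54 above its group for interferon response genes, and astrocyte genes stay between -0.08 and 0.08.

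Microglia genes correlated less once 1 Tat+/Meth array was left out. Of 21 genes 6 followed the rest above 0.7, the lysophospholipid receptor Gpr34 (0.80), Fcer1g (0.79), the complement subunit C1qc (0.79), Fcrls (0.78), the adaptor Tyrobp (0.73) and the protease Ctss (0.71). With the mean of the list, 40 of 14339 other genes exceeded 0.8. C1qc read 12.64, 12.71, 12.87, 12.97 and 12.98 on the Tat-/Sal arrays. It read 12.71, 12.75, 12.94, 13.02 and 13.20 on those of Tat+/Meth and 12.94, 12.96, 12.96, 13.03 and 13.06 on those of Tat+/Sal. On replicate 5 of Tat+/Meth the mean of the list stood 0.20 above the group mean. Without that array the median fell to 0.09 and 0 members followed the rest above 0.7. Within Tat-/Sal and Tat+/Sal, which do not hold that array, the median was 0.37 and -0.03. Laptm5 (-0.54) and Siglech (-0.39) ran against the others. The next probe moved with the brightest for Laptm5 (r = 0.96) and hardly for Siglech (0.10).

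Of 28 endothelial genes 9 followed the rest above 0.7, led by the efflux pumps Abcb1a (0.89) and Abcg2 (0.85), Ly6a (0.85), Itm2a (0.79), Vwf (0.79) and the transcription factor Sox17 (0.76). With the mean of the list, 21 of 14332 other genes exceeded 0.8. Vwf, von Willebrand factor, had the largest SD of the list, 0.57. Vwf read 10.62, 10.91, 10.998, 11.54 and 11.67 on the Tat-/Sal arrays. It read 10.50, 11.13, 11.50, 11.84 and 12.71 on those of Tat+/Meth and 11.23, 11.39, 11.46, 11.74 and 12.03 on those of Tat+/Sal. Cldn5 (0.26), Flt1 (0.09), Pecam1 (-0.16) and Kdr (-0.26) hardly followed, so that the endothelial markers did not move as a single group. The next probe of Kdr ran against its brightest (r = -0.39). In the vessel wall, the pericyte gene Notch3 followed its list at 0.63, and no pericyte or smooth muscle gene exceeded 0.7. With the mean of that list, 3 of 14347 other genes exceeded 0.8.

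Meningeal and fibroblast genes had a median SD of 0.35. Of 12 members 3 followed the rest above 0.7, the proteoglycan Fmod (0.89), the retinoic acid enzyme Aldh1a2 (0.88) and Slc6a13 (0.74). Slc22a6, with the largest SD of the list (0.65), did not follow (0.003), and Mgp had r = -0.22. Fmod read 6.75, 6.88, 7.10, 7.41 and 7.89 on the Tat-/Sal arrays. It read 6.47, 6.52, 6.90, 6.95 and 7.15 on those of Tat+/Meth and 6.62, 6.82, 7.12, 8.10 and 8.19 on those of Tat+/Sal. In Tat+/Sal 2 arrays lay well above the others.

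Astrocyte genes had the lowest median SD of the 22 lists, 0.13, and the mean of the list differed by at most 1.11-fold within a group. Of 21 members 1 followed the rest above 0.7 (F3, 0.74), while Aqp4 (-0.31), Gja1 (-0.55) and Gfap (-0.25) ran against it. The next probe did not move with the brightest for F3 (r = -0.10) or Aqp4 (-0.11), so their values rest on 1 probe each. Gfap, the filament protein whose promoter drives the transgene switch, read 10.58, 10.95, 11.19, 11.29 and 11.31 on the Tat-/Sal arrays. It read 10.50, 10.96, 11.01, 11.13 and 11.67 on those of Tat+/Meth and 10.47, 10.93, 10.999, 11.26 and 11.46 on those of Tat+/Sal. Gfap differed by 1.66-fold, 2.25-fold and 1.98-fold within the groups, and its other probe moved with the brightest (r = 0.88). The bicarbonate transporter Slc4a4 was as variable (SD 0.39, r = 0.99 between its probes) and had r = 0.07 with Gfap.

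Among 231 pairs of lists, 4 had a correlation of 0.7 or more between their means and 0 had one of -0.7 or less. They were heat shock with endoplasmic reticulum stress genes (0.87), glucocorticoid response with clock genes (0.79), astrocyte with interneuron genes (0.78) and activity-induced with red blood cell genes (0.77). With slide taken out they were 0.85, 0.80, 0.80 and 0.72. Oligodendrocyte and microglia genes correlated at 0.63, and at 0.24 without replicate 5 of Tat+/Meth. Each value is over 15 arrays that share their scaling. The astrocyte and interneuron means also moved with the first component (r = -0.52 and -0.70), whose part in their correlation was not tested.

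**Figure D5:**
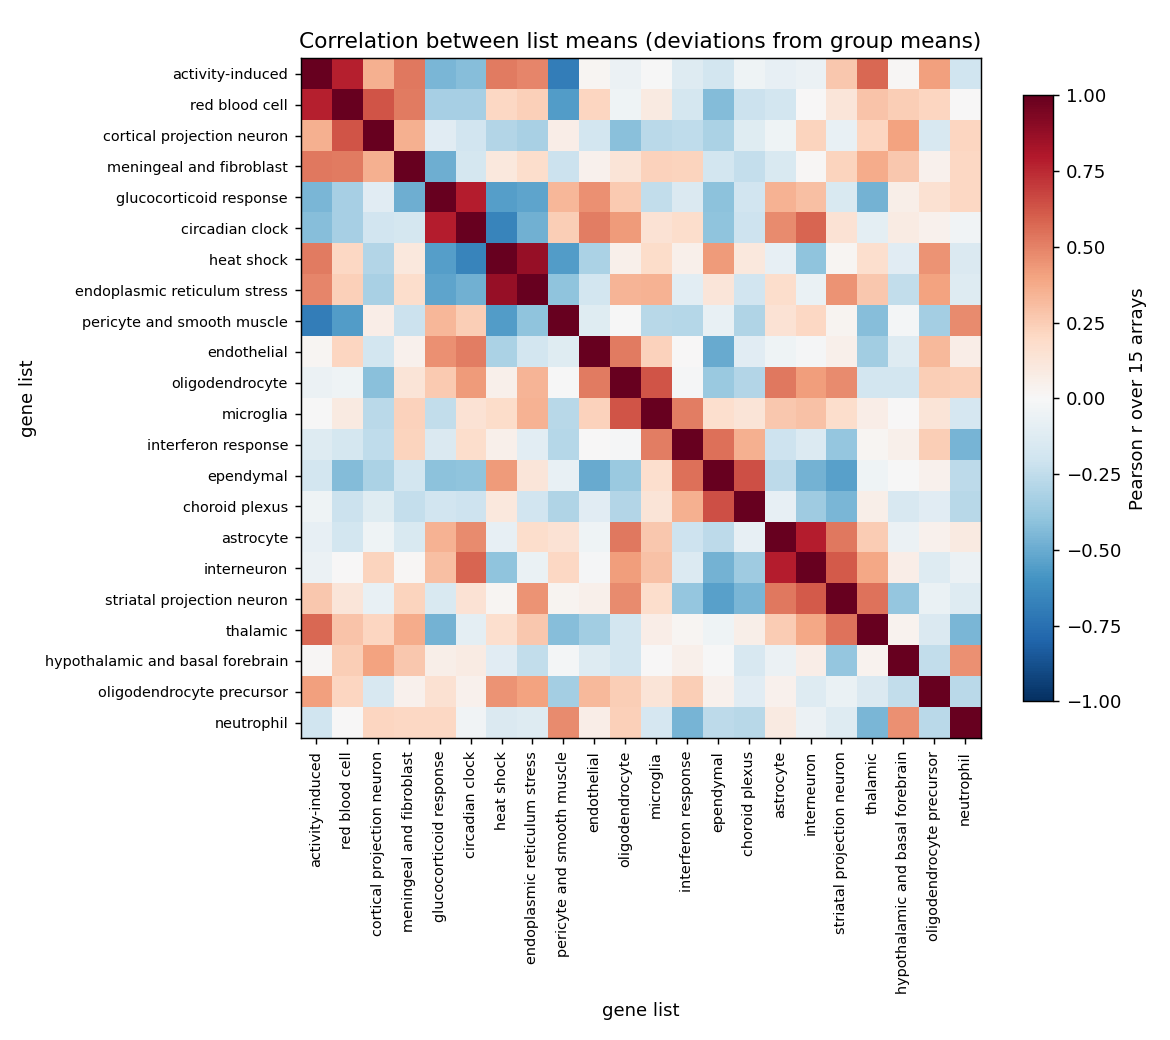
Pearson correlation between the means of the 22 gene lists over 15 arrays, after the group means were subtracted. The activity-induced and red blood cell genes (0.77), the glucocorticoid response and clock genes (0.79) and the heat shock and endoplasmic reticulum stress genes (0.87) stand out as pairs.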

How the data were processed

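RNA of 20 mouse brain samples was hybridised to 1-colour Agilent arrays. The authors deposited scanner tables from Feature Extraction 10.7.3.1 (named per the file headers), whose processed signal, an intensity per spot, is background-subtracted. The deposited intensities were not yet scaled between arrays. Control spots (3671 of 62976) and outlier spots were left out, log2 values of spots of 1 probe were averaged, and arrays were scaled to a common 75th percentile. Symbols were matched through RefSeq accessions (27650 probes, 20968 symbols, table of assembly GRCm38.p6, while the header names mm9), with the brightest probe per gene. Only genes well above background on all 15 arrays were used, and group means were subtracted. The scanned dye is cy3 in the labels and Cy5 in the methods, which also name a smaller array format.

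Covariation with 4 marker genes was tested by limma 3.58.1 in R 4.3.3 with group in the model and Benjamini-Hochberg adjustment, and 14 relations by 100000 two-sided permutations within groups, of which 1 is not reported here. Ttr was not well above background on all 15 arrays, so Enpp2, the next gene of its list that was, stood in. The procedure was tested on simulated data. Genes named were the markers, the 20 with the largest SD, list members and the genes most like a list. The members and lists were chosen with earlier results of these data known. The r limit of 0.7, the motifs other than the cAMP response element and CArG box, the alternatives on Ttr itself, Spearman's rho, the globin genes alone and component 1, and those for the other lists were chosen after seeing the data. Alternatives changed scaling, background correction, the probe and detection rules, covariates, slide and single arrays. Nothing says whether RNA extractions were independent beyond 1 sample per array, so p-values measure the spread between these samples, and the number of arrays limits the precision.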

Additional observations from a re-analysis of the deposited data

Results flagged for a closer look

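In 21 of 150 groups of 5 arrays examined (14%), the highest or lowest array lay so far from the next that the gap exceeded 0.710 of the range of the group, Dixon's limit. Chance alone gives about 5% of such groups, but 60 of the 150 are those of the 20 genes chosen for the largest SD, a choice that favours outlying arrays, and genes that move together are not independent. Of the 21, 14 came from these 60 groups and 7 from the other 90 (7.78%).

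Among list means, the microglia genes had their highest array in Tat+/Meth at 12.81 against 12.59 for the next (gap 0.860 of the range). The cortical projection neuron genes had it in Tat+/Sal at 9.86 against 9.14 (gap 0.813). The interferon response genes had it in Tat-/Sal at 10.93 against 9.37 (gap 0.748), with Oasl2 at 12.02 against 8.97 (gap 0.735). The 3 neutrophil genes had their lowest array in Tat-/Sal (gap 0.792) and in Tat+/Meth (gap 0.741).

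Of the marker genes and their partners, Mbp was lowest on 1 Tat+/Meth array at 14.21 against 14.41 (gap 0.718). Junb was highest on 1 Tat-/Sal array (gap 0.711).

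Of the genes with the largest SD, Cabyr had 1 high array in each group, at 8.63, 7.40 and 9.30 against 6.20, 6.12 and 6.20 for the next (gaps 0.812, 0.914 and 0.837). Xlr3b had 1 low array in Tat+/Meth (gap 0.750) and 1 high array in Tat+/Sal (gap 0.846). Lbhd2 had 1 high array in Tat-/Sal (gap 0.852) and in Tat+/Meth (gap 0.827). Within Tat+/Meth, 1 array was high for Prss28 (gap 0.718), Col4a6 (gap 0.757) and Pde6g (gap 0.766), which belong to the block of 10 genes. Layn, also of the block, had 1 low array in Tat-/Sal (gap 0.804). N6amt1 had 1 high array in Tat-/Sal (gap 0.793) and Apobr 1 in Tat+/Sal (gap 0.730).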

How the results depend on the processing

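The correlations of Fos with Hbb-b1 (0.731 to 0.839 when single arrays were left out) and of Hbb-b1 with Hba-a1 kept their direction and an adjusted permutation p under 0.05 under all 25 alternatives, and the SDs of 28 named genes moved by less than their jackknife error under 687 of 700. Leaving the arrays unscaled moved most values: component 1 held 39.0% of the variance (20.7 to 28.1% when single arrays were left out), the medians became 0.636 (activity-induced), 0.524 (astrocyte), 0.570 (microglia), 0.494 (endothelial), 0.545 (red blood cell) and 0.365 (choroid plexus), and limma called 2984 genes with Fos, 6319 with Mbp and 7 with Hbb-b1. Unscaled signals carry the array's brightness by construction. With median scaling the medians were 0.266 (astrocyte), 0.440 (microglia), 0.315 (endothelial) and 0.117 (choroid plexus). The globin genes and Alas2 alone had 0.936. Genes called with Fos were 1 with the 75th percentile as a covariate and 0 to 2 when single arrays were left out (2 without replicate 3 of Tat+/Meth). Genes called with Mbp were 6 with quantile normalization, 1 with the series matrix values, 0 with slide as a block, median scaling, normexp, detection on at least 8 arrays or the 75th percentile as a covariate, and 0 to 87 when single arrays were left out (87 without replicate 5 of Tat+/Meth). The causes were not tested.

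Weak correlations changed sign. Mbp with Hbb-b1 (-0.0843) became 0.0139 with slide as a block, 0.00117 with quantile normalization, 0.0523 with median scaling, 0.577 unscaled, 0.00115 with normexp, 0.123 with the mean of all probes and 0.267 with the 75th percentile as a covariate. Fos with Enpp2 (-0.0867) became 0.0671 with median scaling, 0.390 unscaled, 0.00815 with normexp, 0.00440 with the series matrix values and 0.0818 with the covariate. Unscaled, Fos with Mbp was 0.512, Mbp with the 75th percentile 0.747 and Enpp2 with it 0.493, and Mbp with it was 0.0234 for the mean of all probes. When single arrays were left out, Fos with Enpp2 ranged from -0.323 to 0.0410, Mbp with Hbb-b1 from -0.210 to 0.0247, Enpp2 with Hbb-b1 from -0.0923 to 0.363 and Enpp2 with Kl from -0.0798 to 0.310.

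Arrays of different groups with the same replicate number did not all deviate together (r from -0.197 to 0.416, 8 of 15 pairs over 0.1). Pairs with different numbers were not examined for comparison, so whether the numbers pair the samples was not tested. With the replicate block, the endothelial median was 0.323, Mbp with Hbb-b1 had r = 0.00337, and limma called 0 genes with Mbp and 1 with Enpp2.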

Other observations

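Genes of antigen presentation by MHC class II, which the lists did not hold, also varied together. H2-Ab1 and H2-Eb1, a beta chain of each of the mouse class II molecules, correlated at r = 0.93 (0.90 to 0.94 when single arrays were left out), and H2-Ab1 and the invariant chain Cd74 at 0.84. Fos followed H2-Ab1 at 0.81 and H2-Eb1 at 0.81. These pairs were chosen after their values were seen.

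Among cortical projection neuron genes, Tbr1, Neurod2 and Nr4a2 had the largest SDs and followed the rest of their list at 0.96, 0.92 and 0.78, with Fezf2 at 0.66 and Cplx3 at 0.53. Cux2 (0.29), Lamp5 (0.12) and Rorb (-0.01) hardly followed, and Kcnv1 (-0.41) and Rspo1 (-0.42) ran against the rest. The list as a whole thus did not move together (median 0.08). Tbr1, a transcription factor of deep layer neurons, read 8.43, 8.55, 9.09, 9.57 and 10.54 on the Tat-/Sal arrays. It read 7.52, 7.77, 7.83, 8.40 and 8.54 on those of Tat+/Meth and 7.61, 7.63, 7.85, 8.001 and 10.14 on those of Tat+/Sal. It correlated with Neurod2 at 0.96 and with Nr4a2 at 0.82 (0.63 to 0.87 when single arrays were left out), and Vxn followed Tbr1 at 0.92. The SDs were 0.83, 0.68 and 0.95 log2 units, against 0.45 for Cplx3, 0.30 for Fezf2 and 0.08, the lowest of the list, for Rorb.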
